A study of Rattus norvegicus with 18 samples.

Results

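The 6 neighbouring chromosome 2 genes Psma5, Sort1, Mybphl, Psrc1, Celsr2 and Sars1, of 14217 genes named on the array, were examined in rat kidney through every probe set annotated to them. These are 7 of 31042 probe sets, 2 for Sort1 and 1 for each of the others, each naming its gene alone. The locus was chosen by the measured strain difference of Celsr2 in these same arrays, and the other genes were taken as its neighbours, so the values of the strain contrast for the members are given as a description, without p values. Of the 7 probe sets, 5 were bright enough to enter the fit, while those of Psrc1 and Mybphl were among the dimmest 40% of the array and were left out of it.

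Whole kidneys of 9 S.SHR(2) rats and 9 Dahl S rats were each hybridised to an Affymetrix array. S.SHR(2) is a congenic strain made from 2 parents, SS/Jr and the spontaneously hypertensive rat SHR/NHsd, and its name places the introgressed segment on chromosome 2. Dahl S (SS/Jr) is the salt-sensitive inbred parent, in which blood pressure climbs and the kidney is injured on a salty diet. Where the introgressed segment begins and ends is not given in the labels. The design text speaks of males at 4, 12 and 20 weeks, but an age, the sex and a low-salt diet (0.3% NaCl) are labelled for 2 Dahl S rats only (4 weeks for replicate 2, 12 weeks for replicate 4), so no rat was placed in an age group. The arrays were deposited in 3 consecutive runs of 6, each with 3 Dahl S and then 3 S.SHR(2) rats. The labels do not say what a run stands for, so these deposit blocks are used only to set strains side by side within a run, and differences between blocks were not tested. Replicate numbers follow the accession order and pair nothing. The rats are the replicates, and their number limits the precision of every value. Nothing states that they came from separate litters.

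The 6 genes do unrelated work. Celsr2 encodes an adhesion G protein-coupled receptor of the flamingo cadherin family, which helps to align cells within an epithelial sheet (planar cell polarity). Sort1 encodes sortilin, a receptor that carries proteins between the Golgi, endosomes and lysosomes, and Psrc1 encodes a microtubule-associated protein of the mitotic spindle. Mybphl encodes a myosin-binding protein known from the heart, Psma5 an alpha subunit of the proteasome core, and Sars1 the enzyme that charges tRNA with serine. In human liver, common variants between CELSR2 and PSRC1 are associated with SORT1 expression and with LDL cholesterol, which is why the genes are often treated as a single locus.

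In the RefSeq gene table of the rat assembly GRCr8 the 6 stood in the order Psma5, Sort1, Mybphl, Psrc1, Celsr2, Sars1, with no other protein-coding gene between them. Psma5, Sort1, Mybphl and Psrc1 lay on the plus strand, and Celsr2 and Sars1 on the minus strand, so that Psrc1 and Celsr2 pointed towards each other. The promoter windows of the 3 genes that name the locus are shown because the results turn on whether their transcripts moved together (RefSeq, GRCr8, 250 bases before to 50 after the start, 5′ to 3′ on the gene's strand). They lie at chr2:198741333-198741632 (minus strand), chr2:198710299-198710598 (plus strand) and chr2:198612245-198612544 (plus strand). Capitals mark the GC box (GGGCGG) and the CCAAT box (CCAAT), searched on both strands.
Celsr2: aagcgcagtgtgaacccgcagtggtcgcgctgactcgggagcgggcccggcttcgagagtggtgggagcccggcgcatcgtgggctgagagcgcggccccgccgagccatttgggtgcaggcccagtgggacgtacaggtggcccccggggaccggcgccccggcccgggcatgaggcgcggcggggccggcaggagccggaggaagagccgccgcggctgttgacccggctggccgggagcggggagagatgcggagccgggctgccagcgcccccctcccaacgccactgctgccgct
Psrc1: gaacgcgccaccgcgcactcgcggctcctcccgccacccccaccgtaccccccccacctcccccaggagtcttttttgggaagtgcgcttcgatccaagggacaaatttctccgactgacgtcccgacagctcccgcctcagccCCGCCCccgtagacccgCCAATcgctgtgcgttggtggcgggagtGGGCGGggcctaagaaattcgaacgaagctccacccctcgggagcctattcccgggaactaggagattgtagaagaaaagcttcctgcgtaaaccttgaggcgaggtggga
Sort1: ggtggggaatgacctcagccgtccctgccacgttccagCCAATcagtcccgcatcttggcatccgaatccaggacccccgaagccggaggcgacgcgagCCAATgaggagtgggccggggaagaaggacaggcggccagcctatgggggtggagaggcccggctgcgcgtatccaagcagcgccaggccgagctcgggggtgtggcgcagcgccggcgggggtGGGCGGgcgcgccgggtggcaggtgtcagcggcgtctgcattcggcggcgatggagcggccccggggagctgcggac

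The Celsr2 window held 37 CpG pairs and was 76.3% G or C, but it contained neither box, nor a TATA box (TATAAA) or an E-box (CACGTG). The Psrc1 window (63.3% G or C, 27 CpG pairs) held 2 GC boxes and 1 CCAAT box. The Sort1 window (72.3%, 33 CpG pairs) held 1 GC box and 2 CCAAT boxes. Over 33469 rat promoter windows of the same length, 33.1% held a GC box, 37.5% a CCAAT box, 14.2% a TATA box and 6.42% an E-box, with a median of 51.7% G or C and 7 CpG pairs. The windows of Psma5 (2 GC and 2 CCAAT boxes), Sars1 (1 GC box) and Mybphl (no box, 3 CpG pairs) made up the rest. A match is a description of letters and not a bound site.

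The kidney label was borne out by its markers. All 8 kidney markers with a probe set were above the filter, with Umod, the uromodulin of the thick ascending limb, at 5820 to 7695 units in S.SHR(2) and 5258 to 7517 units in Dahl S. All 4 striated muscle, 2 adrenal and 2 liver markers were under the filter, and the striated muscle markers summed to 11.2 to 39.3 units in S.SHR(2) and 13.8 to 59.6 units in Dahl S. The adrenal markers summed to 4.8 to 36.9 and 5.2 to 32.8 units, and the liver markers to 11.4 to 73.2 and 5.5 to 67.8 units. The liver marker Apob lay just under the filter, with medians of 39.3 units in S.SHR(2) and 36.0 units in Dahl S. The 2 fat markers were above the filter, and summed to 44.7 to 96.9 units in S.SHR(2) and 42.5 to 100.3 units in Dahl S. No pair of arrays was identical. In a whole-kidney sample, fewer cells of a type and less RNA per cell cannot be told apart.

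Celsr2 (probe set 1371018_at) was chosen for its strain difference, so its standing apart from its neighbours is a description only. Its intensity ran from 83.4 through a median of 140.9 to 173.3 units in S.SHR(2), and from 34.2 through 54.0 to 95.1 units in Dahl S. The ranges overlapped only through S.SHR(2) replicate 4 (83.4 units), which lay under Dahl S replicate 1 (95.1 units). The means were 132 ± 30.1 units in S.SHR(2) and 59.6 ± 18.6 units in Dahl S (SD, n = 9 each). On the scale log2(intensity + 16) the difference was 1.0 ± 0.146 (SE), or 2.00-fold. Celsr2 had no other probe set, so its value rests on 1 probe set. Probe sequences were not at hand, so whether its probes cover bases that differ between the strains was not tested. It was the 1 member past an adjusted p of 0.05 (limma, adjusted over all probe sets) among the 5 tested, beside 0.123% of all 18626 probe sets tested, and 0.0215% past it in the higher direction. This contrast chose the locus, so nothing is read from that share.

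**Figure D1:**
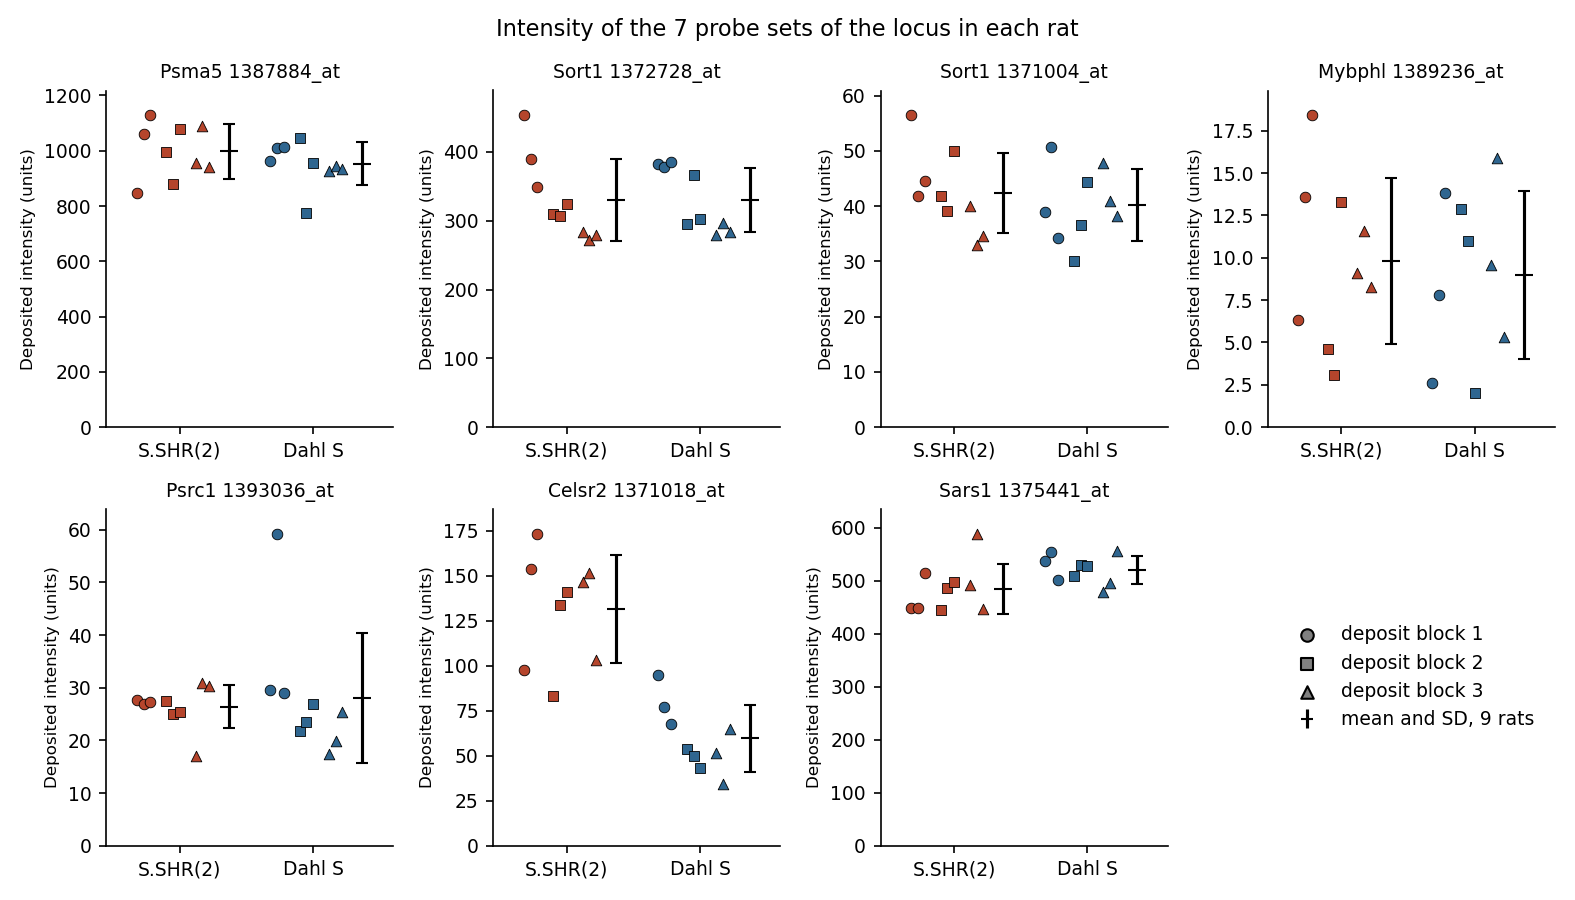
Deposited intensity (y axis, units, from 0) of each probe set in each rat, S.SHR(2) left and Dahl S right in every panel, with marker shapes for the 3 deposit blocks and bars for the mean and SD of 9 rats. Celsr2 is high in S.SHR(2) (83.4 to 173.3 units) against Dahl S (34.2 to 95.1 units), whereas the other 6 probe sets have overlapping clouds.

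Set side by side within each deposit block, the strains did not overlap for Celsr2. In block 1 it was at 97.6, 153.6 and 173.3 units in S.SHR(2), against 95.1, 76.9 and 67.4 units in Dahl S. In block 2 it was at 83.4, 133.6 and 140.9 units in S.SHR(2), against 54.0, 49.6 and 43.2 units in Dahl S. In block 3 it was at 146.7, 151.8 and 103.0 units in S.SHR(2), against 51.4, 34.2 and 64.9 units in Dahl S. All 3 blocks thus had the lowest S.SHR(2) rat above the highest Dahl S rat, narrowly in block 1 and by wider gaps in the others. Strain ranges were separate in the same direction in each of the 3 blocks for 0.317% of the tested array. The blocks divide the same arrays that chose the locus, so they are not a replication and nothing is read from that share. The differences on the log2 scale were 0.73 in block 1, 1.04 in block 2 and 1.23 in block 3 (3 rats against 3, where an exact test cannot go below p = 0.10). They were not tested against one another.

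Within S.SHR(2) the block means of Celsr2 lay close together, at 142 ± 39.3, 119 ± 31.3 and 134 ± 26.8 units (SD, n = 3 each). In Dahl S they were 79.8 ± 14.1, 48.9 ± 5.43 and 50.2 ± 15.4 units (SD, n = 3 each). Blocks held 10.2% of the variance of Celsr2 among S.SHR(2) rats and 63.6% among Dahl S rats, where the median over all tested probe sets was 50.6% in each strain. With deposit block as a covariate the Celsr2 difference was 1.0 ± 0.125, past the threshold beside 0.494% of all probe sets. This fit used the arrays that chose the locus, so nothing is read from its share either.

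Sortilin transcripts did not share the strain difference of Celsr2. The brighter Sort1 probe set, 1372728_at, ran from 272.6 through 310.2 to 453.1 units in S.SHR(2), and from 279.1 through 302.2 to 385.7 units in Dahl S. Its means were 330 ± 59.2 units in S.SHR(2) and 330 ± 46.4 units in Dahl S (SD, n = 9 each), a ratio of 1.0 with an SE of 0.103 on the log2 scale. The ranges overlapped, with S.SHR(2) replicates 1 and 2 (453.1 and 390.2 units) above every Dahl S rat. The block means were 397, 314 and 279 units in S.SHR(2) and 382, 321 and 287 units in Dahl S. Blocks held 85.6% of its variance in S.SHR(2) and 84.1% in Dahl S. Within blocks the strain difference of this probe set was 0.04, −0.01 and −0.02 on the log2 scale.

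The dimmer Sort1 probe set, 1371004_at, had the same order of blocks in S.SHR(2) but not in Dahl S. Its block means were 47.6, 43.6 and 35.9 units in S.SHR(2) and 41.3, 37.0 and 42.3 units in Dahl S. It ran from 32.9 through 41.8 to 56.4 units in S.SHR(2), and from 30.1 through 38.9 to 50.7 units in Dahl S. Its log2 difference was 0.10 ± 0.0884 (SE), with overlapping ranges. Blocks held 18.6% of its variance in S.SHR(2) and 13.2% in Dahl S. Across the 9 rats of a strain its r with the brighter probe set was 0.66 in S.SHR(2) and −0.11 in Dahl S, given as a description of 2 probe sets read on the same arrays.

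Psrc1 (1393036_at), the nearest protein-coding neighbour of Celsr2, was dim in both strains. Its intensity ran from 17.0 through 27.2 to 30.9 units in S.SHR(2), and from 17.5 through 25.3 to 59.2 units in Dahl S. The strains overlapped, and 1 rat, Dahl S replicate 2 at 59.2 units, lay well above the other 17. The mean log2 values differed by 0.01, from 5.42 ± 0.157 in S.SHR(2) and 5.41 ± 0.307 in Dahl S (SD, n = 9 each). The block differences, S.SHR(2) minus Dahl S, were −0.33, 0.06 and 0.30, so the sign of Psrc1 turned between blocks while that of Celsr2 did not. In block 1 the strains were separate for Psrc1, with S.SHR(2) lower (26.9 to 27.6 units, against 29.0 to 59.2 units in Dahl S). Over the tested array, 5.15% of probe sets were separate and lower in S.SHR(2) in that block. Without Dahl S replicate 2 the block 1 difference of Psrc1 was −0.11. Of the 4 markers of dividing cells, Cdk1 (101.8 units, the highest of 18 rats), Mki67 (101.3 units, rank 2) and Ccnb1 (55.8 units, rank 3) were high in Dahl S replicate 2, while Top2a ranked 8. Other mitotic spindle genes were mixed in this rat, from rank 1 (Aurkb, Cenpf and Nusap1) to ranks 12 (Aurka, Plk1 and Birc5) and 14 (Kif11). The 4 markers summed to 105.7 to 323.9 units in S.SHR(2) and 124.8 to 300.5 units in Dahl S. Their part in the Psrc1 value was not tested.

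Mybphl (1389236_at) was near the bottom of the scale, as were the striated muscle markers. It ran from 3.1 through 9.1 to 18.4 units in S.SHR(2), and from 2.0 through 9.6 to 15.9 units in Dahl S. Every value lay near or under the 16 units added before taking logs, so the mean log2 difference of 0.06 has little meaning, and signal above background was not shown.

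The outermost genes of the locus were bright, with overlapping strain ranges. Psma5 (1387884_at) ran from 847.6 through 995.6 to 1127.7 units in S.SHR(2), and from 775.5 through 956.6 to 1046.8 units in Dahl S, with a log2 difference of 0.04 ± 0.0722 (SE). The ranges overlapped, and the lowest rat was Dahl S replicate 5. Sars1 (1375441_at), the neighbour on the other side of Celsr2, ran from 444.1 through 485.6 to 588.4 units in S.SHR(2), and from 479.5 through 527.9 to 556.0 units in Dahl S. Its log2 difference was −0.11 ± 0.0642 (SE), the opposite sign to Celsr2. Within blocks it was −0.18, −0.13 and −0.03, and in block 2 all 3 S.SHR(2) rats (444.1 to 497.6 units) lay under the Dahl S rats (508.8 to 529.4 units). That held for 4.85% of all tested probe sets in block 2. The block 3 value of Sars1 was 0.11 with arrays centred on medians, and 0.05 and 0.04 without S.SHR(2) replicate 9 or Dahl S replicate 9. Between S.SHR(2) and Dahl S, Psma5, both Sort1 probe sets and Sars1 were not past the threshold. That does not show equal levels.

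**Figure D2:**
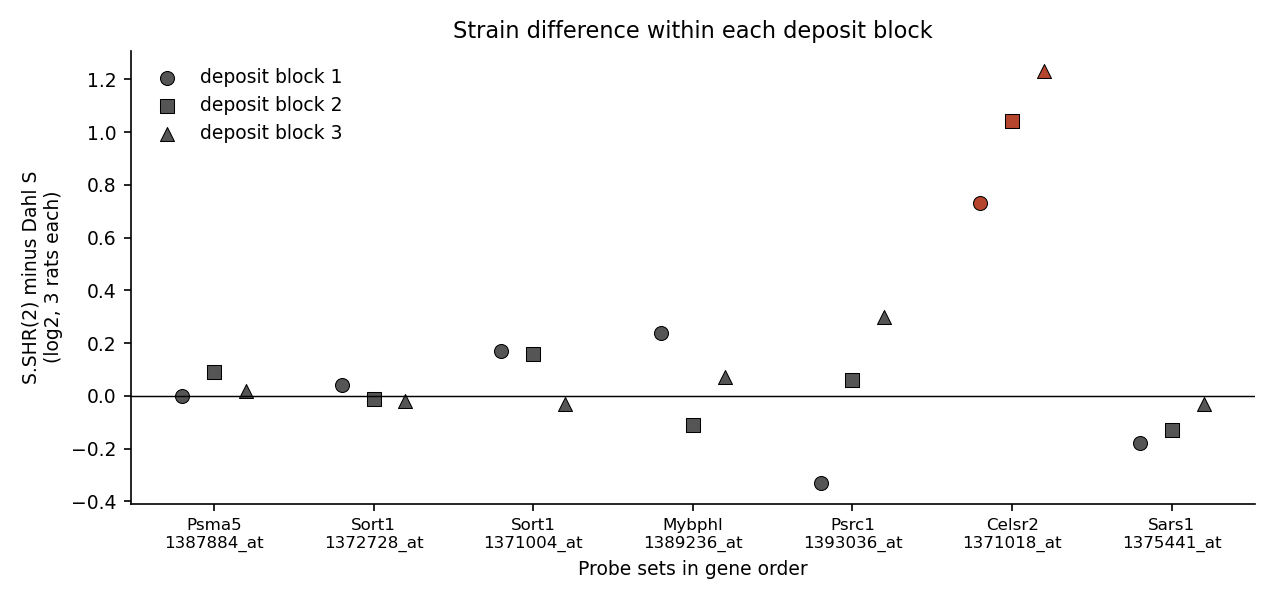
Difference of the mean log2 values, S.SHR(2) minus Dahl S (y axis), for each probe set in gene order (x axis) within each deposit block (marker shapes, 3 rats per strain and block). Celsr2 lies at 0.73, 1.04 and 1.23, and the other probe sets lie between −0.33 and 0.30.

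Whether a neighbour moved with Celsr2 from rat to rat was tested inside each strain, which the strain contrast does not use. Pearson and Spearman correlations of log2 values were computed for the 4 tested neighbour probe sets in each strain, 8 relations in all, with exact two-sided permutation p values over all orders of 9 rats and Benjamini-Hochberg adjustment over the 8. The orders moved rats freely across deposit blocks, so these p values ignore the blocks. None passed an adjusted p of 0.05 with either measure, and 1 of 8 had an unadjusted p under 0.05 with each.

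That relation was Sars1 in S.SHR(2), where the rats with more Celsr2 signal tended to have more Sars1 signal. Pearson's r was 0.72 (exact permutation p = 0.027, adjusted p = 0.22) and Spearman's rho 0.80 (exact permutation p = 0.014, adjusted p = 0.11). Without the 2 rats farthest from the median of Celsr2, r was 0.66 over 7 rats (exact permutation p = 0.11). In Dahl S the same pair had r = 0.49 and rho = 0.53 (exact permutation p = 0.18 and 0.15, adjusted p = 0.36 and 0.24), and r = 0.34 without the 2 farthest rats. After block means were subtracted r was 0.77 in S.SHR(2) and 0.39 in Dahl S. Over all tested probe sets, 0.907% had a higher r with Celsr2 among S.SHR(2) rats and 15.2% among Dahl S rats. Sars1 thus leaned the same way as Celsr2 within strains and the opposite way between them, and neither is a called difference.

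For the brighter Sort1 probe set, 1372728_at, r with Celsr2 was −0.10 in S.SHR(2) and 0.65 in Dahl S (exact permutation p = 0.81 and 0.059, adjusted p = 0.85 and 0.24). Its rho was −0.08 in S.SHR(2) and 0.60 in Dahl S (exact permutation p = 0.84 and 0.097, adjusted p = 0.96 and 0.19). Within deposit blocks the Dahl S relation did not hold, with r = −0.10 after block means were subtracted. In S.SHR(2) that value was −0.51, and without the 2 farthest rats r was 0.43 in S.SHR(2) and 0.52 in Dahl S.

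The dimmer Sort1 probe set, 1371004_at, had r = −0.08 in S.SHR(2) and −0.19 in Dahl S (exact permutation p = 0.85 and 0.62, adjusted p = 0.85 and 0.82), and its rho was −0.02 in S.SHR(2) and −0.20 in Dahl S (exact permutation p = 0.98 and 0.61, adjusted p = 0.98 and 0.82). Without the 2 farthest rats r was 0.40 in S.SHR(2) and −0.08 in Dahl S. Psma5 had r = 0.49 in S.SHR(2) and 0.31 in Dahl S (exact permutation p = 0.18 and 0.41, adjusted p = 0.36 and 0.65), and its rho was 0.67 in S.SHR(2) and 0.62 in Dahl S (exact permutation p = 0.059 and 0.086, adjusted p = 0.19 in each strain). Without the 2 farthest rats r was 0.58 in S.SHR(2) and 0.46 in Dahl S. After block means were subtracted the Psma5 values were 0.50 in S.SHR(2) and −0.07 in Dahl S. The interquartile range of r over all tested probe sets was −0.24 to 0.24 in S.SHR(2) and −0.37 to 0.35 in Dahl S.

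**Figure D3:**
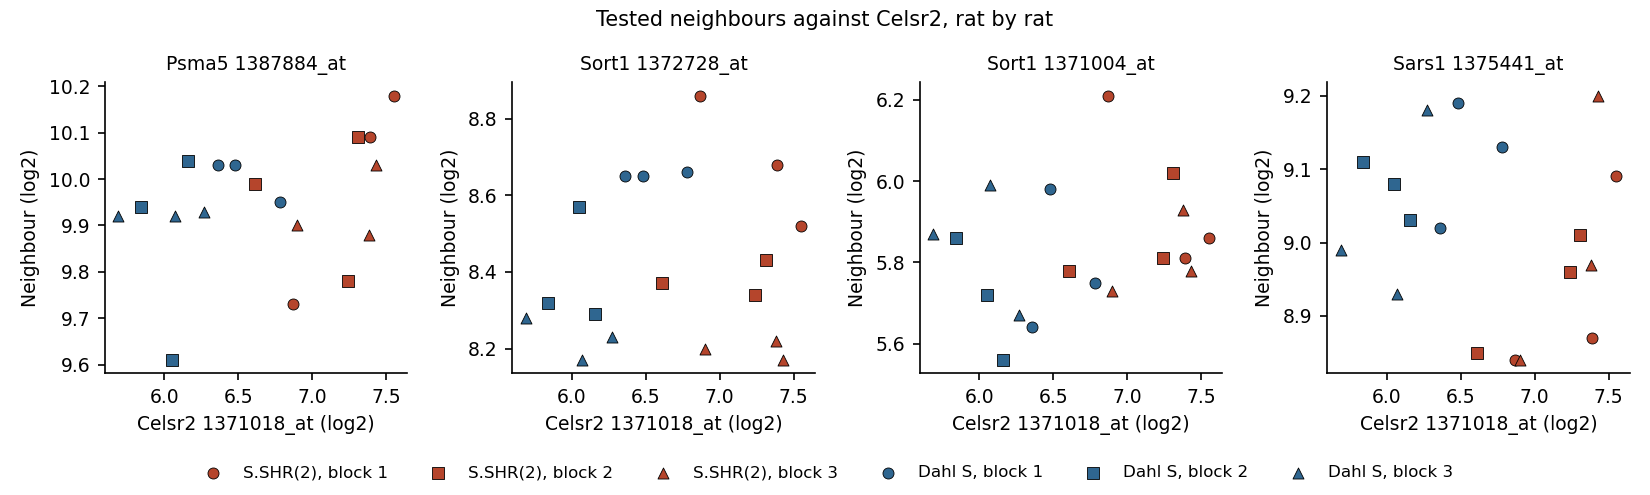
Log2 value of each tested neighbour probe set (y axis) against that of Celsr2 (x axis) in 18 rats, with colours for S.SHR(2) and Dahl S and marker shapes for deposit blocks. The Celsr2 values of S.SHR(2) lie to the right of most Dahl S values, and the Sars1 panel shows the S.SHR(2) relation with r = 0.72.

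The genes named here for the highest and lowest r with Celsr2 from rat to rat lay on other chromosomes. They were picked from all tested probe sets, wherever their genes lay, so their location does not show whether neighbours moved with Celsr2. Whether genes of its own chromosome were more or less frequent among high values of r was not tested. With each strain's mean subtracted, over 18 rats, the highest r among tested probe sets naming 1 gene belonged to Ranbp3, a cofactor of nuclear export (0.80), Rpl35, a ribosomal protein (0.78), and Camk2n1, an inhibitor of calmodulin-dependent kinase (0.78). The lowest belonged to Celf1, an RNA-binding regulator of splicing (−0.83), Phb2, a prohibitin of the inner mitochondrial membrane (−0.81), and Mphosph6, a partner of the RNA exosome (−0.78). After block means were subtracted as well the values ran from 0.62 to 0.77 and from −0.79 to −0.68. On the same measure the members had 0.61 (Sars1), 0.40 (Psma5), 0.26 (Sort1 1372728_at) and −0.14 (Sort1 1371004_at). These are the extremes of 18625 probe sets on the same arrays and carry no p. None of these 6 probe sets had a strain difference beyond −0.10 to 0.11 on the log2 scale.

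In gene order, Celsr2 was the only probe set of its surroundings that was past the threshold and higher in S.SHR(2). Celsr2 was chosen by this contrast and its surroundings by position, so nothing is read from its being the only one. Around the locus, 15 genes with a tested probe set were taken on each side, 30 genes with 41 probe sets. Over all tested probe sets the median log2 difference was 0.004, with 9593 above 0 and 9033 below. Of the 41 flanking probe sets, 10 were above 0 and 31 below, with a median of −0.08. Past the threshold were 2, both lower, beside 0.123% of all tested probe sets in either direction. These were Gstm7 (−1.38 ± 0.12) and Gstm1 (−1.33 ± 0.167), glutathione S-transferases of the mu class, and 5 genes with a tested probe set stood between Gstm1 and Psma5. All 5 flanking Gstm genes were below 0, and 4 had separate strain ranges in each deposit block, beside 0.317% of all tested probe sets. These genes are paralogs, and whether their probe sets read one another was not tested. Of the other 36 probe sets none passed, and they ran from −0.47 to 0.24. Their median was −0.06, with 10 above 0 and 26 below.

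Next to the locus on the Psma5 side, Sypl2, a synaptophysin-like membrane protein, was at −0.16 ± 0.135 and 0.01 ± 0.125 with its 2 probe sets, and Cyb561d1 was at −0.01 ± 0.0961. On the Sars1 side, Elapor1, a transmembrane protein of endosomes and lysosomes, had the lowest value of those 36 probe sets, −0.47 ± 0.172, with 42.7 ± 13.2 units in S.SHR(2) and 66.7 ± 18.4 units in Dahl S (SD, n = 9 each). It was not past the threshold. Tmem167b followed with 165 ± 21.2 units in S.SHR(2) and 168 ± 14.7 units in Dahl S.

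**Figure D4:**
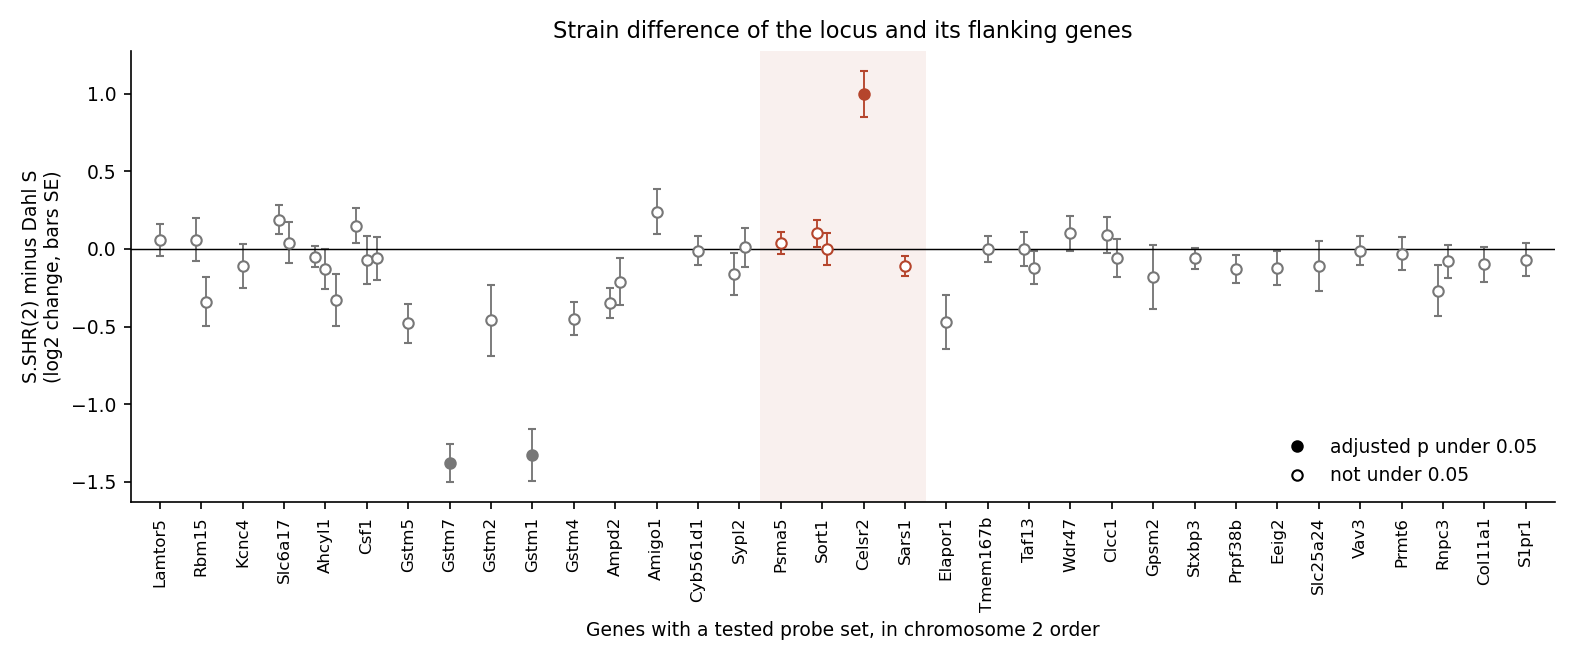
Log2 difference, S.SHR(2) minus Dahl S, with SE bars (y axis), for every tested probe set of the locus (shaded, red) and of 15 genes on each side in chromosome 2 order (x axis). Filled points are past an adjusted p of 0.05: Celsr2 at 1.0, and Gstm7 and Gstm1 at −1.38 and −1.33. The order has no scale in bases.

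Genes that work with the members elsewhere in the genome were counted as lists. Of 19 planar cell polarity genes, the partners of Celsr2, 11 were tested and none passed (limma, with 3 at an unadjusted p under 0.05). Their median was −0.02, with Dchs1, a protocadherin, at 0.35 ± 0.136, Prickle2 at 0.19 ± 0.0812 and the Wnt receptor Fzd6, the lowest of the list and named after its value was seen, at −0.28 ± 0.122. Of the 11, 5 were above 0 and 6 below. Of 22 genes of sorting receptors and lipoprotein handling, 17 were tested and none passed (1 at an unadjusted p under 0.05). Their median was 0.00, with Gga2, a Golgi clathrin adaptor that binds sortilin, at 0.21 ± 0.0813 and Lpl, lipoprotein lipase, at −0.16 ± 0.0882. The 12 tested proteasome core subunits had a median of 0.02 and none passed, with no unadjusted p under 0.05, and they ran from −0.11 (Psma1) to 0.09 (Psmb2).

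Of 19 aminoacyl-tRNA synthetases tested none passed, with 1 at an unadjusted p under 0.05. This was Tars1, the threonine enzyme, at −0.33 ± 0.0799, with 230 ± 28.2 units in S.SHR(2) and 294 ± 23.7 units in Dahl S (SD, n = 9 each). Eprs1 was at −0.11 ± 0.067, and the list median was 0.03. Mitotic spindle genes, the company of Psrc1, had 12 tested members, none past the threshold and 2 at an unadjusted p under 0.05, with 10 below 0 and a median of −0.11. Cenpf, a kinetochore protein, was at −0.28 ± 0.114 and Prc1, which bundles spindle microtubules, at −0.27 ± 0.128. Of 4 myosin-binding proteins 2 were tested and neither passed, nor had an unadjusted p under 0.05 (Mybpc2 at −0.21 ± 0.192, Mybpc3 at −0.07 ± 0.132). Over all 18626 tested probe sets 4.02% had an unadjusted p under 0.05, 0.123% passed and 9033 were below 0.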

How the data were processed

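Kidney mRNA was measured with 1 array per rat in 9 S.SHR(2) and 9 Dahl S rats. The deposited value is a linear intensity for every probe set, and its mean after trimming 2% from each end was about 150 units on all arrays. The software that made it was not given in the sources used here. Without scanner files or detection calls, neither a background correction nor a detection filter was run. Per the labels' protocols, the RNA came from a Trizol extraction followed by RNeasy clean-up.

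The 57 control probe sets were left out. Intensities were quantile normalized and transformed as log2(intensity + 16), which understates changes of dim genes. Probe sets whose mean lay in the lowest 40% (under 5.48) were dropped, leaving 18626 for the test. Strains were compared with limma 3.58.1 (R 4.3.3), S.SHR(2) minus Dahl S, eBayes with an intensity trend, without covariates, with Benjamini-Hochberg adjustment over all tested probe sets. The fit was tried on simulated data of this comparison, 18626 probe sets with 200 changed, in independent noise without deposit blocks. It found 47.5% of the log2 changes set to 0.5 and 94.2% of those set to 1, with 6 and 9 false calls per run. The number changed was set and blocks were absent, so these shares do not give the power on the real arrays. Correlations used exact permutation of the rats of a strain without regard to deposit block. Values per rat are deposited intensities.

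Gene names came from the platform annotation, with symbols and gene order from the RefSeq table of GRCr8. The deposited values name no genome build. The text names all member probe sets, and the 3 genes with the highest and the 3 with the lowest r with Celsr2. It also names the 2 members with the smallest p of each list other than the marker lists. Among flanking genes it names those past the threshold and the 2 nearest on each side. Fzd6, the marker genes and the spindle genes ranked in Dahl S replicate 2 were named outside this rule. The members, lists, tests and alternatives were chosen with earlier results of these data known. Alternatives covered the pseudocount, the filter, the normalization, the model, covariates and each rat left out. Figures were drawn with matplotlib 3.10.9.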

Additional observations from a re-analysis of the deposited data

Results flagged for a closer look

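Of the 14 sets of 9 rats (7 probe sets in 2 strains), 2 had a rat far from the others by Dixon's criterion on the log2 scale, where chance gives about 1 set in 20. Psrc1 was at 59.2 units in Dahl S replicate 2, the rat labelled as 4 weeks old. The Dahl S rat nearest to it on the normalized log2 scale had 29.0 units. The gap on that scale was 0.647 of the strain's range. Psma5 was at 775.5 units in Dahl S replicate 5, the lowest of its strain. The rat of that strain nearest on the normalized log2 scale had 943.1 units, and the gap on that scale was 0.715 of the range.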

How the results depend on the processing

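The Celsr2 difference between S.SHR(2) and Dahl S kept its direction and stayed past the threshold in all 30 alternatives. It ran from 0.68 (pseudocount 64) to 1.18 (pseudocount 1), and from 0.93 to 1.07 with each rat left out. The alternatives refit the arrays that chose the locus, so nothing is read from Celsr2 staying past the threshold. The differences of the 4 tested neighbour probe sets moved by less than the spread between rats and none was past the threshold in any setting, with Sort1 1372728_at between −0.06 and 0.04, Sort1 1371004_at (not tested with the 60% filter) between 0.05 and 0.13, Psma5 between 0.00 and 0.11 and Sars1 between −0.14 and −0.06. The count of probe sets past the threshold over the whole array, 23, was 41 with array weights, 92 with deposit block as a covariate, 64 with 1 residual component and 174 with 3, and 16 to 28 with each rat left out. Higher probe sets were 4 of the 23, but 7 of 21 with arrays centred on medians. No correlation with Celsr2 passed in any planned setting, where the lowest adjusted p was 0.082 (Sars1 in S.SHR(2)), or without the filter, chosen after the data were seen, where Mybphl in S.SHR(2) had r = 0.76 (exact permutation p = 0.019, adjusted p = 0.16). Within deposit blocks the Celsr2 difference ran from 0.52 to 0.83, 0.69 to 1.24 and 0.82 to 1.46 over pseudocounts and normalizations chosen after the data were seen. Neighbours moved more relative to their size, with Psma5 at 0.02 to 0.21, Sars1 at −0.03 to 0.11 and Sort1 1372728_at at −0.04 to 0.09 in block 3, Psrc1 at −0.48 to −0.17 and Mybphl at 0.08 to 0.71 in block 1. With each rat of a block left out, also chosen after the data were seen, Celsr2 ran from 0.59 to 0.93, 0.91 to 1.26 and 1.07 to 1.40. No paired analysis was possible because the replicate numbers were given in accession order and the labels pair no rats. Signal over background cannot be judged without detection calls, which limits Psrc1 and Mybphl.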
